A study of Mus musculus with 2 samples.

Results

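The genes described here are 8 complement components and regulators, C1ra, C1s1, C4b, C3, Cfb, Clu, Cd55 and Cd59a, taken by symbol from the feature lists of both libraries, which hold 32285 genes each. They were chosen as a named list and all 8 had at least 1 unique molecular identifier (UMI, standing for 1 captured RNA molecule) in both libraries. Dissociated prostate tissue of wild-type male C57BL6 mice was profiled by droplet single-cell RNA sequencing in 2 libraries: 1 of the ventral lobes (10x Genomics 3' chemistry, version 2) and 1 of the proximal and periurethral region (version 3 of that chemistry). No genetic change or treatment is given for either group, and the age and number of the animals are not given in the labels. With 1 library per group nothing below has a replicate check, no test between the libraries was made, and because the kit changed with the region, the parts of each cannot be told apart.

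Complement is a set of plasma and membrane proteins that mark surfaces for removal. The classical pathway starts when C1q carries the proteases C1r and C1s to a surface, where they cleave C4; all routes meet at C3, which the alternative pathway amplifies with factor B. Host cells are protected by soluble regulators such as clusterin and by membrane regulators such as CD55, which speeds the decay of the enzymes that cleave C3, and CD59, which blocks the terminal pore. Most plasma complement comes from the liver, but other tissues make components locally, and the levels below describe which prostate cells held the transcripts.

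The ventral matrix held 49356586 UMIs in 2221 barcodes and the proximal matrix 97817603 in 4344, of which 1988 and 3705 cells were kept, with 0 barcodes shared. Cells were clustered without complement genes and named from marker lists, of which each named class had at least 3 markers in 25% of its cells; 9 of 10 fibroblast and 9 of 9 endothelial markers were found in the clusters of those names. The ventral library had no stromal cluster, so stromal levels come from the proximal library alone. One proximal cluster of 321 cells, led by the haemoglobin genes Hbb-bs and Hba-a1 and nearest to the proximal luminal markers, stayed unnamed, and the cells with macrophage and MHC class II markers formed 1 cluster per library, called macrophage or dendritic-like. Levels are in CPM, the UMIs of a gene divided by all UMIs of a class and scaled to 1000000, with 95% exact Poisson intervals in brackets that cover counting error only. Because 3' counts and their mapping differ between genes, levels are compared between cells, not between genes.

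C1ra encodes the C1r protease (chr6:124512405-124523443, plus strand, GRCm38) and C1s1 the C1s protease it activates (chr6:124530345-124542359, minus strand); their 3' ends lie 6901 bases apart. Both were found chiefly in fibroblast-like cells of the proximal library. There C1ra reached 114 CPM (105 to 123) from 628 UMIs, and C1s1 reached 191 (179 to 203) from 1050 UMIs. C1s1 had a UMI in 72.8% of the 523 fibroblast-like cells and C1ra in 57.0%, against 0 of 27 T or NK cell-like cells, which allows up to 11.1% of such cells to hold a UMI and sets no limit on cells that express the gene; the median cell had 10293 UMIs in the first class and 7275 in the second. After every cell was thinned to 1000 UMIs the shares in fibroblast-like cells were 16.4% for C1s1 and 9.09% for C1ra. No single cell carried these levels, as the cell with the most UMIs of each gene held 1.59% of the C1ra and 2.38% of the C1s1 total.

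Outside fibroblast-like cells of the proximal library C1ra was low, at 6.19 CPM (2.01 to 14.4) in endothelial-like, 2.0 (1.55 to 2.53) in distal luminal-like, 0.568 in basal-like and 0.172 in proximal luminal-like cells, with 0 UMIs in macrophage or dendritic-like, T or NK cell-like and seminal vesicle epithelium-like cells. C1s1 lay between 0.687 and 1.24 CPM in the same proximal luminal-like, distal luminal-like, basal-like, macrophage or dendritic-like and endothelial-like classes, and the intervals of these 5 classes overlapped. Summed over the fibroblast-like class and over all epithelial-named cells, the ratio was 109 (86.2 to 139) for C1ra and 239 (185 to 315) for C1s1.

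C4b encodes the mouse C4 that C1s cleaves (chr17:34728380-34743882, minus strand). It was thinly sampled, with 118 of its 128 proximal UMIs in fibroblast-like cells. The level there was 21.4 CPM (17.7 to 25.7), in 11.9% of the cells. Its next highest class was distal luminal-like at 0.176 CPM, where 66.7% of 6 UMIs came from 1 cell, and endothelial-like, macrophage or dendritic-like and T or NK cell-like cells had 0 UMIs. The ratio of fibroblast-like over epithelial-named cells was 164 (86.0 to 350). The floor of 3 counts in endothelial-like cells puts the fibroblast-like level at least 5.77-fold higher than there, and at least 7.03-fold higher than in macrophage or dendritic-like cells, both from the point estimate of 21.4. With counting error on both sides, the lower 95% limits of the ratios were 4.62 and 5.63.

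C3, the component at which the pathways meet (chr17:57203970-57228136, minus strand), and Cfb, which encodes factor B of the alternative pathway (chr17:34856374-34862518, minus strand), were again highest in fibroblast-like cells but came from fewer of them. C3 was at 78.3 CPM (71.1 to 86.1) from 431 UMIs in 14.9% of the cells, and Cfb at 44.5 (39.1 to 50.5) from 245 UMIs in 14.5% of them. As for C4b, none of the 27 T or NK cell-like cells had a UMI of either. The single highest cell for each gene held 15.1% of the C3 UMIs and 31.8% of the Cfb UMIs. With that cell left out for its gene, the levels were 66.8 and 30.4. The ratio over epithelial-named cells was 111 (83.4 to 150) for C3 and 117 (79.6 to 179) for Cfb.

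Among the other proximal classes, Cfb was present at 13.6 CPM (6.80 to 24.4) in endothelial-like cells, from 11 UMIs spread over 9 cells, and at 11.2 (5.58 to 20.0) in macrophage or dendritic-like cells, from 11 UMIs in 4 cells. C3 in macrophage or dendritic-like cells stood at 10.2 (4.87 to 18.7), but 90.0% of its 10 UMIs lay in 1 cell and the level without that cell was 1.03. Epithelial C3 was low: basal-like cells had 1.95 CPM (1.25 to 2.90), which did not overlap the 0.550 (0.314 to 0.892) of proximal luminal-like or the 0.412 (0.225 to 0.691) of distal luminal-like cells. Cfb in proximal luminal-like cells, at 0.687 (0.420 to 1.06), was 7.79 (2.31 to 40.9) times its distal luminal-like level, which rested on 3 UMIs. Sbp and Spink1, secretory transcripts of distal luminal cells, were 5.96% of all proximal UMIs and 0.107% to 0.229% of those of the other classes. If all of those were free RNA of the library's mean make-up, it was at most 1.79% to 3.84% of a class and would bring 0.101 CPM of C3, 0.225 of C1s1 and 0.145 of C1ra to proximal luminal-like cells, where C3 stood at 0.550, C1s1 at 0.687 and C1ra at 0.172. Distal luminal-like cells make both transcripts, so no such limit holds for them.

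Set against all epithelial-named cells, 6 of the 8 members, C1ra, C1s1, C4b, C3, Cfb and Cd59a, had higher levels in fibroblast-like cells with intervals that lay apart, as had 37.0% of the 15735 genes with at least 50 UMIs, which all 8 members had. Clu was lower, and the intervals of Cd55 overlapped at a ratio of 1.07 (0.970 to 1.18). On the log2 scale with a pseudocount of 10 CPM, the median difference was 2.26 over the members and 0.05 over all genes tested. Against endothelial-like cells 5 members lay apart and higher, as did 23.4% of 9709 genes; Cd55 and Cd59a overlapped and Clu was 8.07-fold lower. Against macrophage or dendritic-like cells all members but Clu, 7 of 8, lay apart and higher, as did 38.3% of 9874 genes; the lower Clu sum is set by 1 macrophage or dendritic-like cell, and with a minimum of 1000 genes per cell Clu was higher in fibroblast-like cells.

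**Figure D1:**
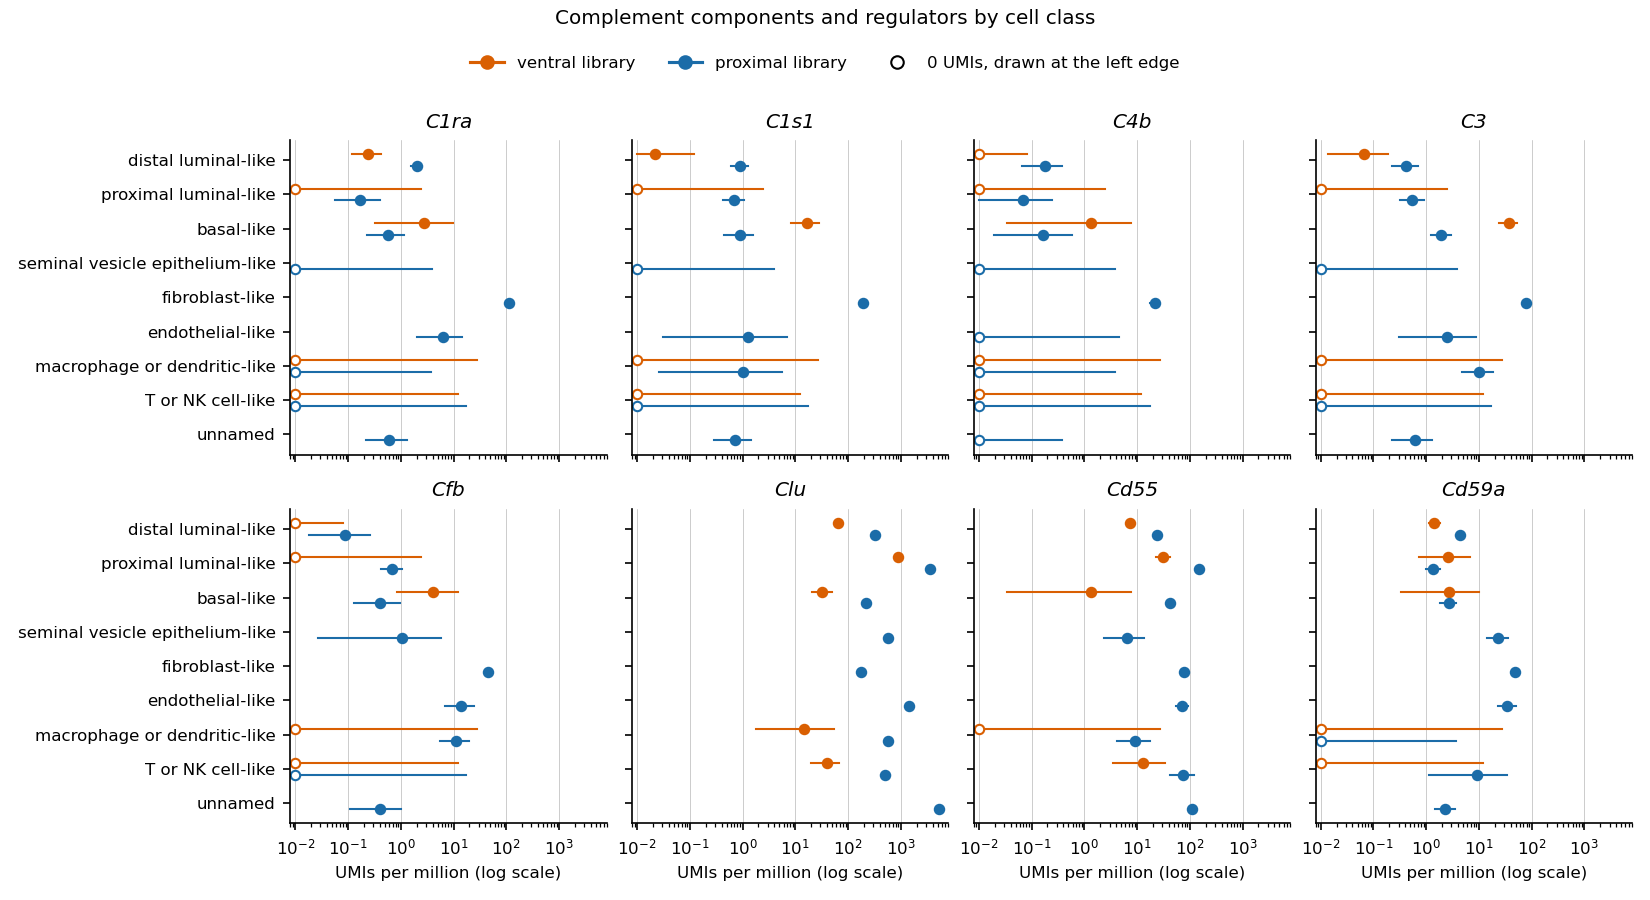
Level of each member in CPM (log axis) by cell class, ventral library in orange and proximal library in blue; bars are 95% exact Poisson intervals and open points at the left edge mark 0 UMIs, with intervals cut off at that edge. C1ra, C1s1, C4b, C3 and Cfb are highest in fibroblast-like cells, Clu in the unnamed cluster and proximal luminal-like cells.

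The share of the captured transcripts that each class held followed the same division. Fibroblast-like cells were 14.1% of the kept proximal cells and had 5.86% of all their UMIs. They held 93.8% of the C1s1, 92.2% of the C4b, 87.3% of the C1ra, 85.7% of the C3 and 81.7% of the Cfb UMIs, with 46.9% for Cd59a. For the other 2 members the shares were 6.0% of Cd55 and 0.571% of Clu, while epithelial-named cells held 77.7% of Cd55 and 68.3% of Clu, both less than their 81.4% of all UMIs. The unnamed cluster held 30.1% of Clu and 15.2% of Cd55 with 10.6% of all UMIs. These shares describe the cells recovered after papain and TrypLE dissociation, and whether that recovery resembles the tissue was not tested.

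**Figure D2:**
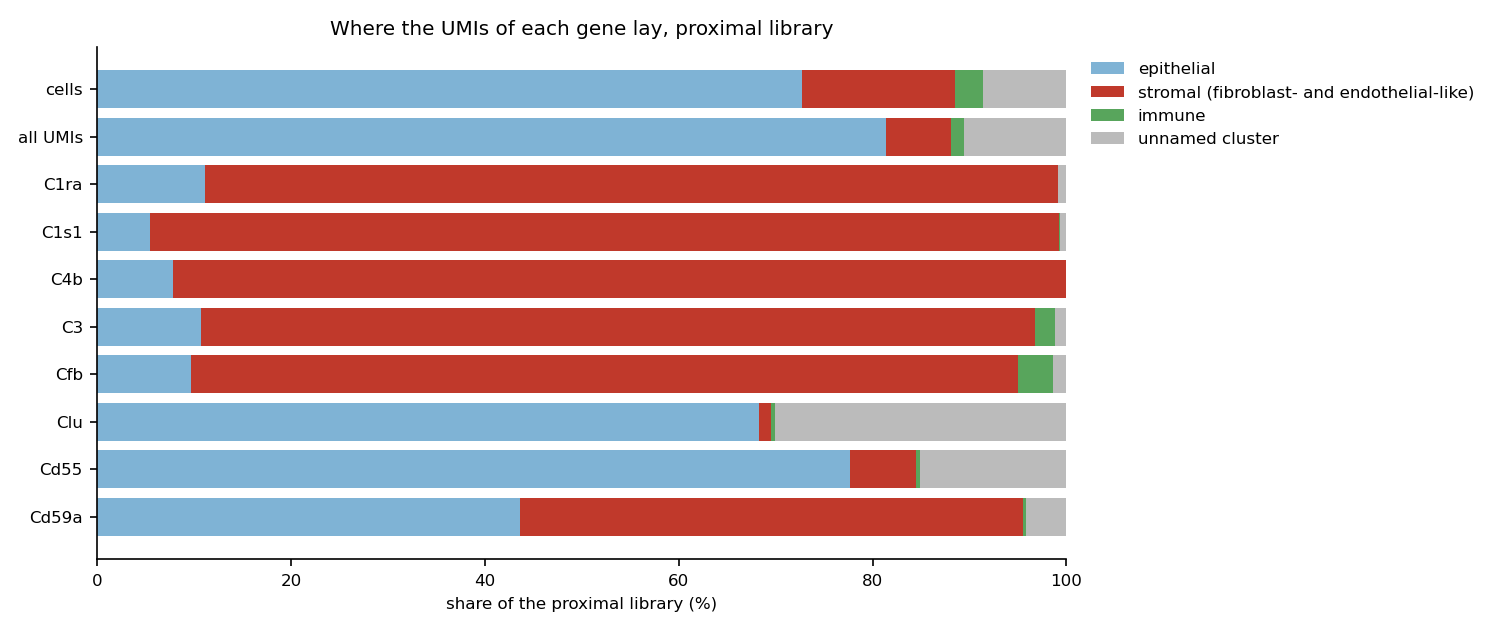
Share (%) of the kept cells, of all UMIs and of each member's UMIs in the proximal library that lay in epithelial-named, stromal, immune-like and unnamed clusters. C1ra, C1s1, C4b, C3 and Cfb lie mostly in stromal cells, which are 15.8% of the cells.

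The fibroblast-like class held 3 clusters, and the members differed among them. Cluster 9, led by Apod, Cxcl14 and Sparcl1 and holding 166 cells, had the most C3, at 207 CPM (184 to 232), against 47.0 (38.5 to 56.9) in cluster 13 and 16.4 (11.1 to 23.5) in cluster 8. Cfb followed the same order at the top, with 107 (90.4 to 125) in cluster 9 against 24.4 (18.4 to 31.8) in cluster 13 and 20.8 (14.7 to 28.6) in cluster 8, the latter pair overlapping. In cluster 9, however, the highest cell for each gene held 51.3% of the Cfb and 22.0% of the C3 UMIs. With that cell left out for its gene, Cfb stood at 52.6 and C3 at 164, with intervals that still lay above those of the other clusters. Whether it was the same cell for both genes was not checked. In cluster 13 the highest cell for C3 held 30.2% of the C3 UMIs, with 33.1 CPM without it.

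C4b had another order: cluster 13, led by Eln, Col3a1 and Ctla2a and holding 179 cells, was highest at 42.1 CPM (34.1 to 51.5), with 11.9 (6.95 to 19.1) in cluster 9 and 3.29 (1.21 to 7.16) in cluster 8, whose 178 cells were led by Wif1, Wnt2 and Lgals1. The C1 proteases varied less, C1ra between 76.3 in cluster 13 and 167 in cluster 9, and C1s1 between 155 and 251 in the same clusters, with cluster 8 in between. Both membrane regulators ran the other way and were highest in cluster 13, Cd55 at 114 (101 to 129) and Cd59a at 65.2 (55.1 to 76.7), and lowest in cluster 9, at 38.6 and 24.6. Cluster 9 over cluster 13 thus gave 4.40 (3.52 to 5.55) for C3, 4.37 (3.19 to 6.07) for Cfb, 0.337 (0.247 to 0.453) for Cd55 and 0.377 (0.253 to 0.548) for Cd59a. Intervals lay apart for all 8 members in that pair, 5 higher against 9.78% of 7536 genes and 3 lower against 12.3%. Clu reached 236 in cluster 8 and 256 in cluster 9, where 1 cell each held 33.0% and 43.0% of the UMIs, against 82.1 in cluster 13. Complement genes were left out of the clustering, but genes that vary with them were not.

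**Figure D3:**
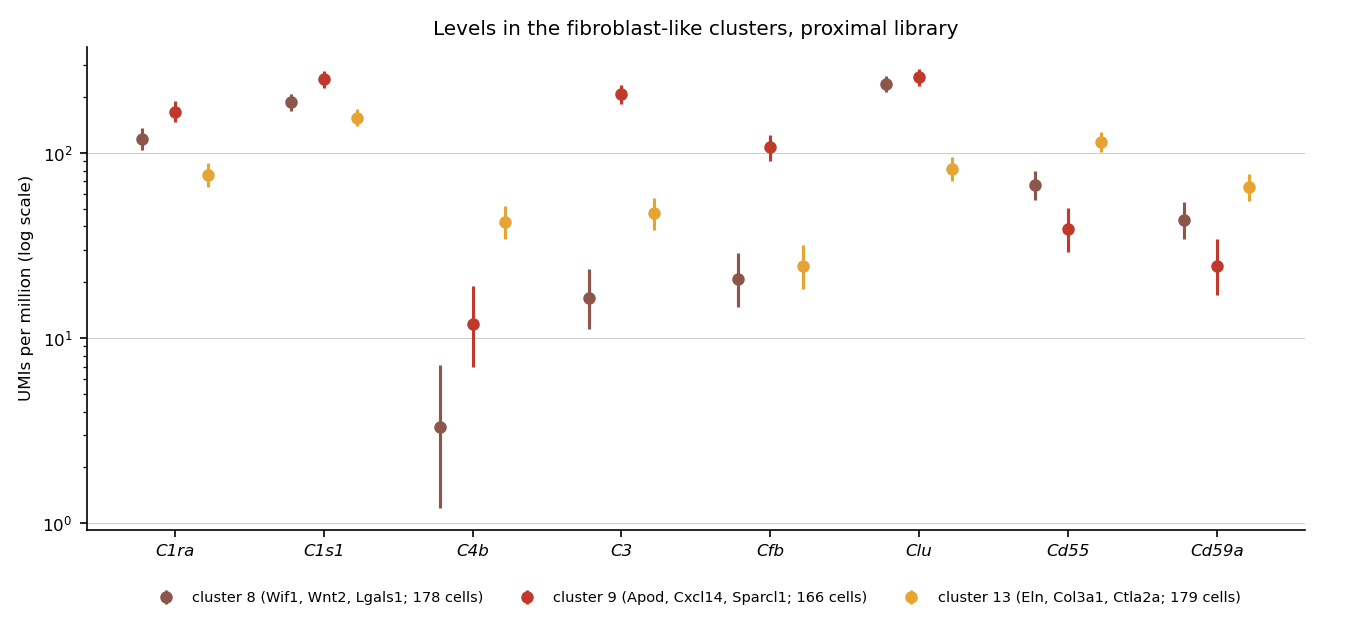
Level of each member in CPM (log axis) in the fibroblast-like clusters 8, 9 and 13 of the proximal library, with 95% exact Poisson intervals. C3 and Cfb are highest in cluster 9, and C4b, Cd55 and Cd59a in cluster 13.

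Summed levels of genes that respond to tissue dissociation (12 listed, all found) were 18685 CPM in cluster 8, 16833 in cluster 9 and 13006 in cluster 13, and those of 12 interferon-response genes were 826, 663 and 560; their part in the differences among the clusters was not tested. The members were also spread unevenly over single cells. Of the 523 fibroblast-like cells, 44 had a UMI of none of the 8 members, 115 had 4 of them and 2 had all 8.

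Fibroblast-like cells also held other complement genes. Among 50 complement genes listed, members included, 30 reached 10 CPM in some proximal class, and the class with the highest level was stromal for 15, immune-like for 9, epithelial for 4 and the unnamed cluster for 2. Of the 15, 13 were highest in fibroblast-like cells, 6 members and 7 others, and 2, Cd46 and Susd4, in endothelial-like cells. Of all 12283 genes that reached the same level, 30.2% were highest in a stromal class. Serping1, which encodes the inhibitor of C1r and C1s, stood at 690 CPM in fibroblast-like cells against at most 11.1 in any other proximal class. Within the class it ranged from 506 in cluster 13 to 1080 in cluster 9. C7, a component of the terminal pore, was at 104 in cluster 9 and 122 in cluster 13 but 1.64 in cluster 8, and Masp1, a lectin-pathway protease, ranged from 41.4 to 89.3.

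The recognition subunits that carry C1r and C1s were in other cells. In proximal macrophage or dendritic-like cells C1qa, C1qb and C1qc reached 1732, 2300 and 1050 CPM, and at most 0.182 in fibroblast-like cells; the ventral values in the same class were 4530, 4009 and 2759. The receptors for the C3a and C5a fragments, C3ar1 and C5ar1, were highest in these cells too, at 207 and 187 in the proximal and 201 and 156 in the ventral library. Of the members, C1ra, C4b and Cd59a had 0 UMIs in the 79 proximal macrophage or dendritic-like cells, and C1s1 had 1.

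C1ra and C1s1 each have a neighbouring copy, C1rb (chr6:124570294-124581171, plus strand) and C1s2 (chr6:124624625-124636085, minus strand), and the copies were found in different cells. In the 2 proximal distal luminal-like clusters rich in Tgm4, which encodes the prostate transglutaminase, C1rb stood at 1057 CPM (1039 to 1076) in cluster 4 and 858 (809 to 909) in cluster 14, and C1s2 at 160 (153 to 168) and 85.4 (70.5 to 103). C1rb was among the 10 leading genes of cluster 4 and had a UMI in 87.9% of its cells. Fibroblast-like cells had C1rb at 3.45 and C1s2 at 0.545 CPM. In the ventral library each copy had 1 UMI in 1692 distal luminal-like cells.

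C1ra was itself somewhat higher in the Tgm4-rich clusters, at 4.21 CPM from 55 UMIs against 0.620 from 13 in the other distal luminal-like cells, a ratio of 6.79 (3.66 to 13.6), and C1s1 had a ratio of 3.21 (1.43 to 7.68). With Cd55, Cd59a and Clu, 5 members lay apart and higher in the Tgm4-rich clusters; of the 4 members with the 50 UMIs asked of the background genes, which leaves out C1s1, all 4 did, as did 53.0% of 12208 genes. Scaled without the 20 most abundant genes of each library, 3 of the 8 members did. Of the 68 C1ra and 30 C1s1 UMIs of the whole distal luminal-like class, 9 and 6 lay in 4 cells with collagen UMIs. Read sharing also bears on the small C1ra and C1s1 values. Of the 91-base windows in the last 500 bases of the longest coding transcript, 11% of those of C1ra occur unchanged in C1rb and 30.5% of those of C1rb in C1ra, while C1s1 and C1s2 share 2.44%. How reads that match both were counted is not given in the sources used here, so C1ra in Tgm4-rich cells is uncertain, as is C4b, which shares 19.8% of such windows with C4a. C4a was at most 2.18 CPM in any class, and no such window of Cd55 or Cd59a occurs in Cd55b or Cd59b, while 3.41% of those of Cd59b occur in Cd59a.

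**Figure D4:**
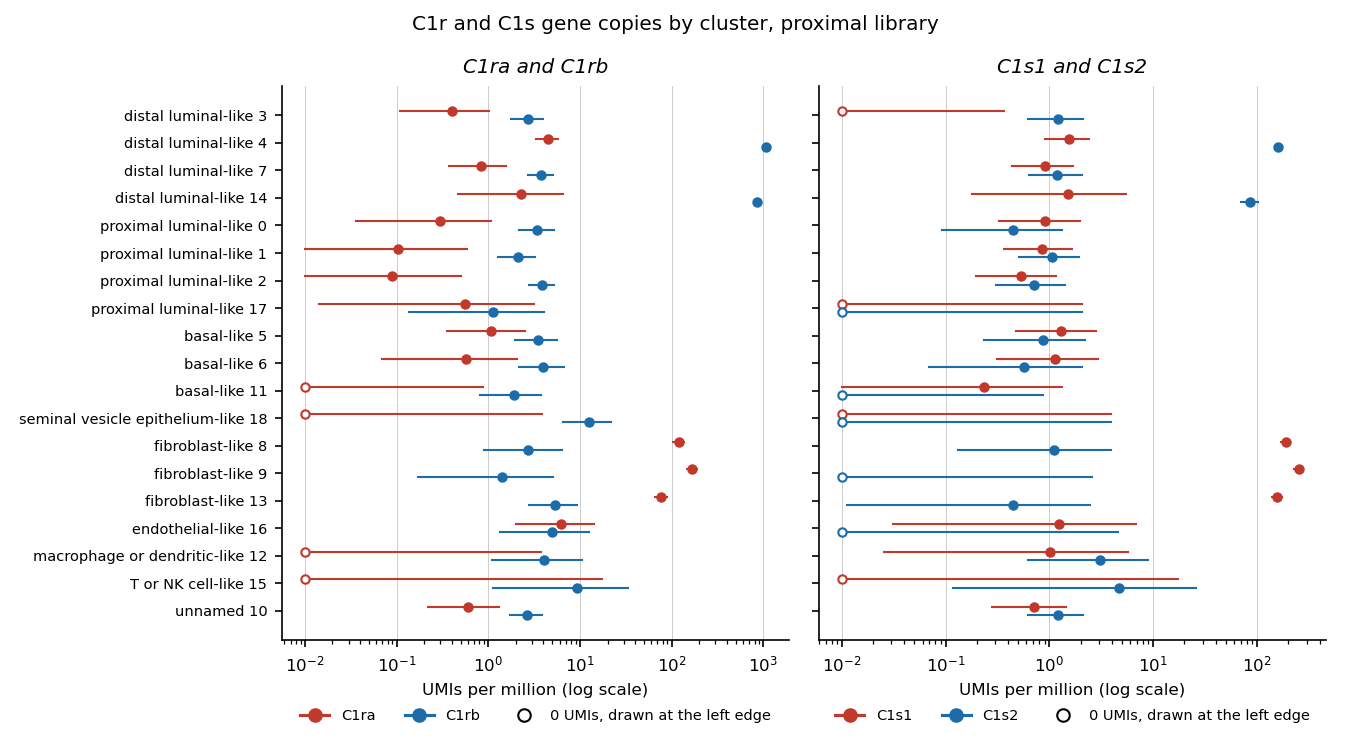
Levels of C1ra and C1rb (left) and C1s1 and C1s2 (right) in CPM (log axis) for every proximal cluster, with 95% exact Poisson intervals; open points at the left edge mark 0 UMIs. C1ra and C1s1 stand out in the fibroblast-like clusters, and C1rb and C1s2 in the distal luminal-like clusters 4 and 14.

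Since C1s1 and C1s2 were found in different cell classes, the 250 bases before each start site are shown for comparison, from the RefSeq promoter table (GRCm38.p6), 5′ to 3′ on the strand of the gene. They cover chr6:124542360-124542609 (minus strand) and chr6:124636086-124636335 (minus strand).
C1s1: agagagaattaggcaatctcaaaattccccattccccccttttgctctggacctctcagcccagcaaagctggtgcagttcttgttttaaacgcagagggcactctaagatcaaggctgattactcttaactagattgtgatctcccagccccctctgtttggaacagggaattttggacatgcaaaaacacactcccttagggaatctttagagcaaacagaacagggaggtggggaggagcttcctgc
C1s2: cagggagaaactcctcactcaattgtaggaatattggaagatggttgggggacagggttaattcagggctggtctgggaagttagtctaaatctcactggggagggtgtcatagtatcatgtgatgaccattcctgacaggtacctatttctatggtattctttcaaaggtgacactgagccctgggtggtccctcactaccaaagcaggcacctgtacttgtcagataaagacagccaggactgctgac
Aligned end to end they had 129 identical positions, 51.6% of 250, and no stretch of 12 or more identical bases. The corresponding windows of C1ra and C1rb overlapped the gene models and are not printed; they had 134 identical positions. Of the 8 members, 5 had an entry in that table: C3, C1ra, C1s1, Cd55 and Cd59a. Searched on both strands for the kB consensus, the interferon-stimulated response element (ISRE) core, spelled GAAA, any 2 bases and GAAA, and the gamma-activated site (GAS), spelled TTC, any 3 bases and GAA, the 250 bases before their start sites held 1 match, an ISRE core starting 187 bases before the start site of Cd59a. It is in capitals in the sequence of chr2:104095551-104095800 (plus strand), shown because it holds the match.
Cd59a: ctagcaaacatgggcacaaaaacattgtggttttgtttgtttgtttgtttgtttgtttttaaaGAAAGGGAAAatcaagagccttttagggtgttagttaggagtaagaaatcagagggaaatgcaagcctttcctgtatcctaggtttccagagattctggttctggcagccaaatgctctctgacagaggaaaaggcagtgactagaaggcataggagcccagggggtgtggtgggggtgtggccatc
Among the 32851 promoter windows of that length in the table, 2.98% held the ISRE core, 7.25% the kB consensus and 7.02% the GAS. A match is a description of the sequence, and no factor binding was measured.

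Clu encodes clusterin, a secreted chaperone that also binds the terminal complex (chr14:65968483-65981547, plus strand), and its level was highest in proximal luminal-like cells among the named classes of both libraries. In proximal luminal-like cells it reached 893 CPM (846 to 942) in the ventral and 3530 (3509 to 3552) in the proximal library. Distal luminal-like cells had 65.7 (63.4 to 68.1) and 330 (324 to 337), and basal-like cells 32.7 (21 to 48.7) and 216 (207 to 224). The ratio of proximal luminal-like over distal luminal-like cells was 13.6 (12.7 to 14.5) in the ventral and 10.7 (10.5 to 10.9) in the proximal library. Thinned to 1000 UMIs, 43.6% of ventral and 81.1% of proximal proximal luminal-like cells had a Clu UMI, against 6.68% and 16.8% of distal luminal-like cells.

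Within the proximal library Clu varied among the proximal luminal-like clusters from 1660 CPM in cluster 2, led by Clca1 and Areg, to 5856 (5807 to 5905) in cluster 1, led by Arl14 and Krt23, with no cell above 11.2% of a cluster's UMIs. The unnamed cluster reached 5192 (5147 to 5237), with a UMI in 100% of its 321 cells. Endothelial-like cells formed the third highest class at 1437 (1355 to 1522); 46.7% of them had a UMI after thinning, and the level without the highest cell was 1224. The proximal macrophage or dendritic-like level of 573 and T or NK cell-like level of 511 rested on 1 cell each, which held 81.7% and 89.1% of the UMIs, and were 110 and 66.6 without it. By summed UMIs fibroblast-like cells were lowest of the proximal classes, at 178 (167 to 190). Leaving out the highest cell of each class put them at 151, above both immune-like classes. By the same Sbp and Spink1 limit, free RNA would bring at most 50.7 CPM of Clu to them. Their summed level was 0.116 (0.109 to 0.124) of the epithelial-named level.

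Cd55, the decay-accelerating factor (chr1:130439027-130462744, minus strand), had a higher level in the proximal than the distal luminal-like class and was also present in stroma and lymphoid cells. It was at 31.1 CPM (22.8 to 41.3) in ventral and 148 (143 to 152) in proximal proximal luminal-like cells, and at 7.34 (6.58 to 8.17) and 23.5 (21.9 to 25.2) in distal luminal-like cells. These gave ratios of 4.23 (3.05 to 5.75) and 6.28 (5.82 to 6.78). Fibroblast-like cells at 79.0 (71.8 to 86.8), T or NK cell-like cells at 74.4 (42.5 to 121) and endothelial-like cells at 71.8 (54.5 to 92.8) did not differ beyond their intervals, although 1 cell held 41.4% of the endothelial-like UMIs and the level without it was 45.6. Macrophage or dendritic-like cells had 9.14 (4.18 to 17.4), with 77.8% of 9 UMIs in 1 cell. Averaged over cells instead of summed, T or NK cell-like cells had the highest Cd55 level.

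Among epithelial clusters of the proximal library Cd55 was highest in cluster 1, at 249 CPM (239 to 259), the cluster that also had the most Clu of those named. In basal-like cells it was concentrated in cluster 11, led by Grp and Ivl, at 93.4 (84.5 to 103), against 19.7 (15.9 to 24.2) and 12.0 (8.66 to 16.2) in clusters 5 and 6. By marker levels the second class of cluster 11 was proximal luminal, the class with the most Cd55 at 148 CPM, while clusters 5 and 6 had no second class. The part of cells of mixed markers in that difference was not tested. The Tgm4-rich distal luminal-like clusters had 42.8 against 11.5 in the other distal luminal-like cells, a ratio of 3.72 (3.20 to 4.35), with 2.12 (2.05 to 2.20) for Clu.

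**Figure D5:**
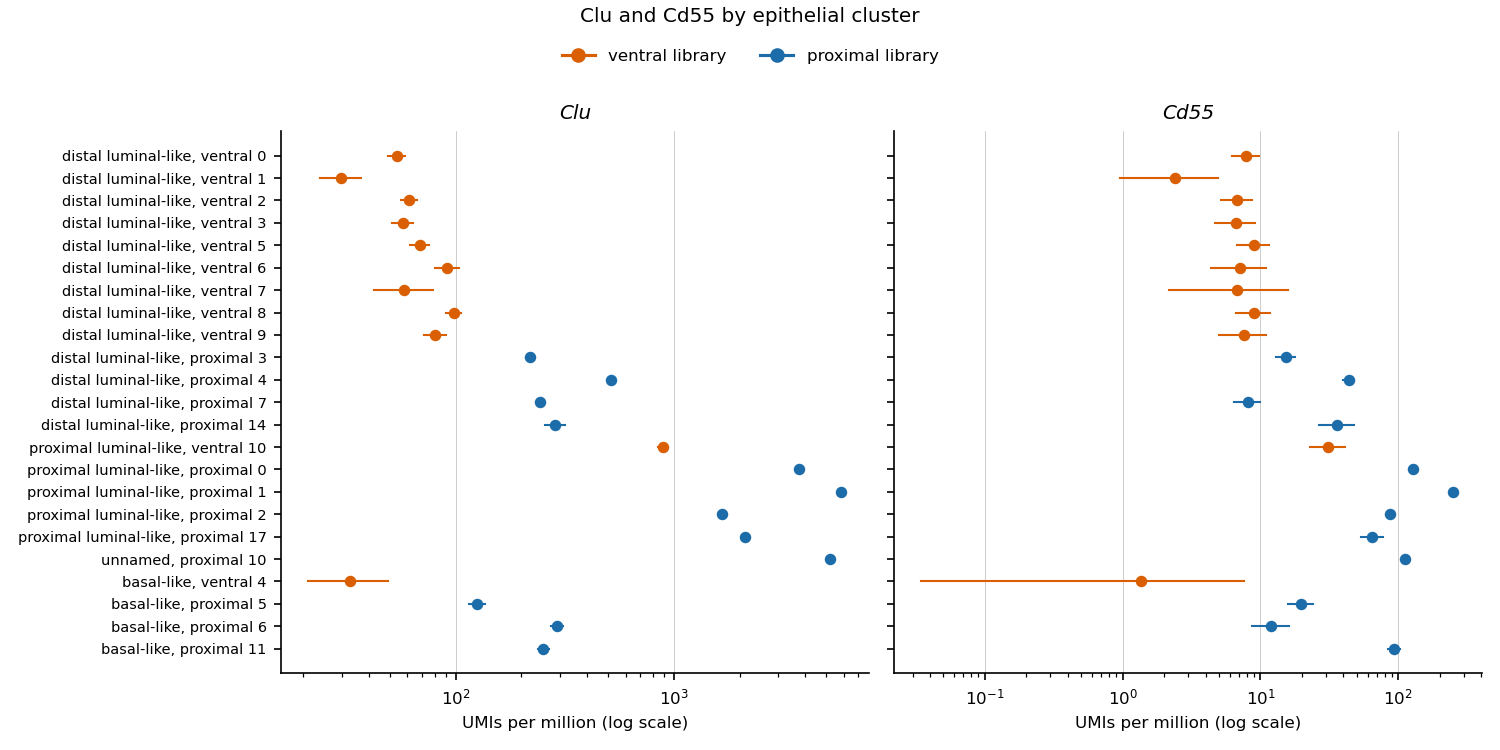
Levels of Clu (left) and Cd55 (right) in CPM (log axes) for each luminal, basal and unnamed cluster, ventral library in orange and proximal library in blue, with 95% exact Poisson intervals. Both genes are highest in proximal cluster 1, and Cd55 in basal-like cells is highest in cluster 11.

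Cd59a, which encodes the membrane inhibitor of the terminal pore (chr2:104095801-104115354, plus strand), had its highest levels in stromal classes. It stood at 47.4 CPM (41.8 to 53.5) in fibroblast-like and 34.7 (23.0 to 50.1) in endothelial-like cells, whose intervals overlapped. The 26 seminal vesicle epithelium-like cells had 23.1 (14.5 to 35.0), which overlapped the endothelial-like interval. Of the proximal Cd59a UMIs, 51.9% lay in stromal and 43.6% in epithelial-named cells. These compartments had 6.73% and 81.4% of all UMIs. In the luminal classes of the proximal library its order was the reverse of that of Cd55, with 4.35 (3.68 to 5.11) in distal luminal-like and 1.37 (0.981 to 1.87) in proximal luminal-like cells, a ratio of 0.316 (0.217 to 0.450). The ventral values, 1.44 and 2.64, overlapped. Within ventral distal luminal-like cells it was higher in cluster 1, led by Msmb and Pbsn, at 7.18 against 1.05 in the rest, a ratio of 6.85 (3.88 to 11.7). It was the 1 member that lay apart and higher there, as did 25.5% of 10947 genes, while Clu (29.7 against 68.2) and Cd55 (2.39 against 7.68) lay apart and lower, as did 4.65%.

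Counted by intervals that lay apart, 2 members (Clu and Cd55) were higher in ventral proximal luminal-like than ventral distal luminal-like cells, as were 49.9% of 11110 genes. In the proximal library 3 were (with Cfb), as were 43.5% of 14283 genes, and 2 were lower, C1ra and Cd59a, as were 32.3% of genes. Of the members with the 50 UMIs asked of each gene, 2 of 3 were higher in the ventral comparison, and in the proximal one 2 of 5 were higher, Cfb not among them, and 2 of 5 lower. Among the named classes of the proximal library 6 members were highest in a stromal class and Clu and Cd55 in an epithelial one; with the unnamed cluster counted, Clu was highest there. Of 16086 genes with at least 50 UMIs in those classes, which all 8 members had, 33.3% were highest in a stromal and 35.6% in an epithelial class. In the ventral library, which had no stromal cluster, each member's highest level was in an epithelial class, as was that of 59.2% of 11434 genes with 50 UMIs, which 3 members had. For C4b, Cfb, C1ra, Cd55 and Cd59a the interval of that ventral class overlapped the next, and for C4b it rested on 1 UMI. For C3 and C1s1 it overlapped the interval of macrophage or dendritic-like cells, which had 0 UMIs of both. The C1s1 interval also overlapped that of T or NK cell-like cells.

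In the ventral library the 5 components were nearly absent: C3 had 30 UMIs in all kept cells, C1ra and C1s1 13 each, Cfb 3 and C4b 1. Ventral basal-like cells had the highest C3, at 36.8 CPM (24.2 to 53.5) from 27 UMIs, and C1s1, at 16.4 (8.45 to 28.6) from 12. The few immune-like cells had 0 UMIs of both. Their upper limits, 27.4 CPM in macrophage or dendritic-like and 12.0 in T or NK cell-like cells, overlapped the C1s1 interval. The first also overlapped that of C3. Where each cell was named by its own markers instead of its cluster's, C3, C1s1, C1ra and Cfb were highest in ventral distal luminal-like cells. Yet 24 of the 27 basal-like C3 UMIs and 7 of the 12 C1s1 UMIs lay in 2 of the 142 cells. These were the 2 that held transcripts of fibrillar collagen genes, which mark fibroblasts. Without these cells the levels were 4.14 and 6.90. The same 2 cells held the 1 ventral C4b UMI, both C1ra UMIs and 1 of 3 Cfb UMIs of the basal-like class. The part of these cells in the difference is given by those values, and what the cells are was not tested.

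Between the libraries, Clu and Cd55 were higher in the proximal library in all 3 epithelial classes. For Clu the ratio of proximal over ventral was 3.95 (3.74 to 4.17) in proximal luminal-like, 5.03 (4.83 to 5.24) in distal luminal-like and 6.59 (4.42 to 10.3) in basal-like cells. For Cd55 it was 4.75 (3.57 to 6.48), 3.20 (2.82 to 3.65) and 31.4 (5.61 to 1243), the last against 1 ventral UMI. CPM is relative to all UMIs of a class. Sbp and Spink1 made up 45.9% of those of ventral and 16.2% of those of proximal distal luminal-like cells. Over the processing alternatives the log2 ratio of Clu in distal luminal-like cells ranged from 1.40 to 2.48 (2.33 as reported). With 10% free RNA subtracted, the log2 ratio of Clu in basal-like cells went from 2.72 to 0.54. By the Sbp and Spink1 limit, free RNA was at most 2.55% of proximal and 5.02% of ventral basal-like UMIs. For the other ventral classes that limit was wide, at 44.6% in proximal luminal-like, 27.0% in macrophage or dendritic-like and 75.1% in T or NK cell-like cells. By intervals apart, 6 members were higher in proximal distal luminal-like cells, as were 75.4% of 13273 genes, 2 in proximal luminal-like cells, as were 30.6% of 12450, and 2 in basal-like cells, as were 28.4% of 10601. The backgrounds count genes with at least 50 UMIs in the pair of classes; of the members with as many, 4 of 4, 2 of 2 and 2 of 3 were called. The 2 members lower in proximal basal-like cells, as were 20.5% of genes, were C3 and C1s1, at ratios of 0.0529 and 0.0545, and 1 of them had 50 UMIs. Without the ventral collagen-positive cells the C3 intervals overlapped, at 4.14 (0.854 to 12.1) in the ventral and 1.95 in proximal cells. Those of C1s1 stayed apart at 6.90 (2.24 to 16.1), from 5 UMIs, and 0.892. The ventral basal-like cells were cluster 4, led by Apoe, Krt15 and Dcn, of which Dcn is on the fibroblast marker list. The part of fibroblast transcripts in the remaining C1s1 difference was not tested.

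Different clusters made up these classes in the libraries. Proximal luminal-like cells were ventral cluster 10, led by Wfdc2 and Cxcl17, and proximal clusters 0, 1, 2 and 17. By marker levels the second class of each of these, and of the unnamed cluster, was periurethral epithelium, for which no cluster was named. In the ventral cluster the transcripts of Sbp and Spink1, products of distal luminal cells, made up more than 5% of UMIs in 41 of 101 cells; in the remaining 60 cells Clu was at 1710 and Cd55 at 55.4 CPM, and the log2 ratio of the libraries went from 1.98 to 1.05 for Clu and from 2.25 to 1.41 for Cd55. Among distal luminal-like cells, the Sbp-rich proximal cluster 3 over the ventral cells outside cluster 1 gave 3.20 (3.02 to 3.38) for Clu and 1.98 (1.63 to 2.41) for Cd55. The Msmb-rich proximal cluster 7 over ventral cluster 1 gave 8.16 (6.59 to 10.2) and 3.37 (1.57 to 8.63), while Cd59a there gave 0.715 (0.426 to 1.24). In cluster 7, 1 cell held 27.3% of the Cd55 and 1 cell 30.2% of the Clu UMIs. Each left out, Cd55 was at 5.99 CPM (4.61 to 7.64), which overlaps the 2.39 (0.962 to 4.93) of ventral cluster 1, and Clu at 173 (165 to 181) against 29.7 (23.8 to 36.7). With all cells kept, 2 members, of 3 with at least 50 UMIs, lay apart and higher in each of these matched pairs, against 30.5% of 11461 and 44.9% of 10101 genes. With 10% free RNA subtracted 0 members did in the first pair, where the log2 ratio of Clu turned from 1.68 to −0.69, and 1 in the second, where that of Cd55 turned from 1.75 to −1.97. The pairs were formed from the clusters' leading genes after the clusters had been seen.

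Across the 17 proximal clusters of at least 30 cells, the pattern of each member was set against 9680 other genes by Pearson's r of log2 levels, as a description; the clusters share 1 library and differ in depth. Nearest to C1ra were Serpinf1 (r = 0.992), Nlgn1 (0.991) and Pdgfra (0.988), and nearest to C1s1 were Col6a1 (0.999), Col6a2 (0.999) and Ctsk (0.996). C4b was nearest to Pi15 (0.994), Clec3b (0.972) and Has2 (0.952), C3 to Ogn (0.975), Aldh1a2 (0.952) and Fbln1 (0.949), and Cfb to Dkk2 (0.948), Cd302 (0.923) and Flrt2 (0.919). Cd59a was nearest to Cd34 (0.969), Igfbp4 (0.960) and Fbln5 (0.956), Clu to Spns2 (0.954), Pglyrp1 (0.945) and Tstd1 (0.937), and Cd55 to Smim15 (0.885), Tspan8 (0.878) and Bace2 (0.861).

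Between members, r over the same clusters was 0.991 for C1ra and C1s1, 0.950 for C3 and Cfb, 0.763 for C3 and C4b, 0.578 for Clu and Cd55, and −0.421 for C1ra and Clu. With the mean level of 12 interferon-response genes, r was 0.534 for Cfb and 0.446 for Cd59a, and from 0.157 to 0.362 for the other members. With 12 dissociation-response genes it was 0.389 for C1ra, 0.371 for Cd59a and 0.359 for C1s1, and from 0.030 to 0.239 for the rest. With 12 NF-kB and acute-phase genes it was 0.381 for Cfb and 0.296 for C3, and from −0.159 to 0.180 for the rest.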

How the data were processed

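The values deposited are raw counts of UMIs, 1 matrix a library, made with Cell Ranger 7.0.0 and build mm10 (GRCm38) per the submitters' processing notes; the annotation and the handling of intronic and multi-mapped reads are not given in the sources used here. No normalization by the authors is recorded. The members and all gene lists were chosen with earlier results of these data known.

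Barcodes with fewer than 500 genes or over 10% mitochondrial UMIs were removed. Scrublet called 11 of 5704 cells (0.193%) doublets, below the assumed rates of 1.60% for the ventral and 2.97% for the proximal library. Most doublets may therefore remain, and their number was not measured. Called cells were removed. Counts scaled to 10000 per cell and log-transformed gave 2000 variable genes (complement and response genes left out), 30 principal components and Leiden clusters at resolution 1 on 15 neighbours with seed 0, in scanpy 1.11.5, igraph 0.11.9, scipy 1.17.1, numpy 2.4.6, pandas 2.3.3 and Python 3.11.15. A cluster took the class whose markers stood highest above the other clusters if at least 3 markers were found in 25% of its cells, and stayed unnamed where markers of a different class outnumbered its own among the 10 genes leading it. Macrophage and dendritic names were merged after the clusters had been seen.

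Counts were summed per class or cluster and divided by the summed UMIs. Poisson, Clopper-Pearson and conditional ratio intervals are exact at 95%; a count of 0 allows up to 3 counts. Classes of at least 20 cells are reported. Other complement genes are named, up to 4 per role, if they reached 50 CPM in some class, besides near-identical copies, and for each member the 3 genes of highest r (log2 of level plus 10) among those with at least 500 UMIs. Comparisons of libraries name no p-values, since each group has 1 library. Gene positions are from GENCODE M21 and promoters from RefSeq. The steps were tested on simulated data. One complement gene is not reported here by name.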

Additional observations from a re-analysis of the deposited data

How the results depend on the processing

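Of 19 alternatives, 18 planned and 1 added after seeing the data, which left out epithelial-named cells with collagen UMIs, 16 bear on levels, 2 on thinning for shares of cells and 1 on the pseudocount of correlations. Counts and ratios between classes were recomputed under 16, and comparisons of clusters under the 6 that keep the clusters. A ratio was left out under any alternative that left 0 counts on either side, so the tallies of ratios miss such cases. Clu in cluster 9 over cluster 13 was thus recomputed under 4 of the 6. C1s1 in fibroblast-like over epithelial-named cells was recomputed under 15 of the 16. Levels themselves, single-cluster levels and the genes most like a member were not recomputed. Of 206 recomputed counts, 6 moved by over 1.5 times. Members highest in an epithelial class of the proximal library went from 2 to 1 when levels were averaged over cells (Cd55 was then highest in T or NK cell-like cells). With 10% free RNA subtracted, members higher in proximal than ventral basal-like cells went from 2 to 1, in the Sbp-rich pair from 2 to 0 and in the Msmb-rich pair from 2 to 1, the last also with 5%. Scaled without the 20 most abundant genes, members higher in Tgm4-rich cells went from 5 to 3. Of 883 recomputed log2 ratios, 738 stayed within their counting interval, 141 moved out of it and 4 changed sign, counting only ratios whose reported interval lay apart from equal levels. The 4 were Clu in fibroblast-like over macrophage or dendritic-like cells (0.72 with a minimum of 1000 genes and 1.23 with each cell named by its own markers, against −1.69), Clu in the Sbp-rich pair (−0.69 with 10% free RNA subtracted) and Cd55 in the Msmb-rich pair (−1.97 likewise). Ratios whose reported interval included equal levels also crossed 0, such as C1ra in the Sbp-rich pair (0.64 as reported, lowest −3.55), C3 (0.42, lowest −0.58) and C1s1 (−0.36, highest 0.16) in proximal luminal-like over distal luminal-like cells, Cd55 in fibroblast-like over epithelial-named cells (0.10, lowest −0.17) and Cd59a in basal-like cells between libraries (−0.03, highest 1.08). Of 326 shares of cells 62 moved, and of 280 correlations 13. For C1s1 in fibroblast-like over epithelial-named cells the log2 ratio ranged from 7.63 to 9.81 (7.90 as reported), and for Cfb from 6.32 to 9.29 (6.87). In proximal over ventral proximal luminal-like cells it ranged from 0.83 to 2.17 for Clu (1.98) and from 1.03 to 2.41 for Cd55 (2.25), and for Clu in basal-like cells from 0.54 to 2.88 (2.72). C3 in proximal over ventral basal-like cells moved from −4.24 to −1.09 without the collagen-positive cells. The cause of the other shifts was not tested. Among the named classes of the proximal library, the unnamed cluster left out, 7 of the 8 members kept their highest class in 16 of 16 alternatives and Cd55 in 15. In the ventral library Clu and Cd55 kept it in 16, C3, C1s1 and Cfb in 15, C1ra and C4b in 14 and Cd59a, which rested on 2 UMIs, in 6. The few UMIs of the ventral components (1 to 30 each) and the 24 to 79 cells of the immune-like classes limit precision. No paired analysis was possible because each group has 1 library.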

Other observations

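Itgam, the alpha chain of complement receptor 3 and a marker of myeloid cells, was not highest in the macrophage or dendritic-like cells of the proximal library, where it stood at 34.5 CPM, but in the unnamed cluster at 165, with 76.8 in proximal luminal-like and 69.4 in fibroblast-like cells. In the ventral library it was at 14.9 in macrophage or dendritic-like and at 0 in proximal luminal-like cells. Its partner chain Itgb2 was at 172 in proximal macrophage or dendritic-like and 83.7 in T or NK cell-like cells, against 0.302 in the unnamed cluster and 0.172 in proximal luminal-like cells. Itgax, the alpha chain of complement receptor 4, was at 92.5 in proximal and 104 in ventral macrophage or dendritic-like cells.

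Cr1l, which encodes the rodent membrane regulator Crry, was present in every class, from 38.9 CPM in seminal vesicle epithelium-like to 116 in T or NK cell-like cells of the proximal library. Cfp, which encodes properdin, was at 64.0 in proximal macrophage or dendritic-like cells and at most 3.09 in the other proximal classes.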
